A study of Mus musculus with 6 samples.

Results

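The kidney expression of 35 genes of fatty acid oxidation (FAO), among them many targets of the nuclear receptor PPARalpha, was compared between Db mice and Db + Ato10 mice, to ask which steps of FAO differed. The genes were chosen by symbol, 35 of the 17684 genes in the table, and fell into 5 classes. These were 6 genes of fatty acid activation and the carnitine shuttle, 16 of mitochondrial beta-oxidation, 8 of peroxisomal beta-oxidation, 2 of omega-oxidation, and 3 that comprised the regulators Ppara and Ppargc1a and the kinase gene Pdk4. All 35 had enough counts to be tested, as had 13679 genes in all.

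Kidney tubules, above all the proximal tubule, take most of their energy from fatty acids. A fatty acid is joined to coenzyme A, carried into mitochondria as a carnitine ester and shortened there by repeated rounds of dehydrogenation, hydration, dehydrogenation and thiolysis, while peroxisomes shorten very long and branched chains and cytochromes of the Cyp4a family oxidize the far (omega) end of the chain. PPARalpha, bound to DNA together with the receptor RXR and assisted by the coactivator encoded by Ppargc1a, raises the transcription of genes for each of these steps.

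All 6 mice were db/db mice, which lack a working leptin receptor and become obese and diabetic, on the strain given in the labels as C57 BLKS/L, and were 50 weeks old. The 3 mice of the Db group had received saline and the 3 mice of the Db + Ato10 group atorvastatin at 10 mg/kg on each day of dosing, both over 40 weeks. By the methods of the study the drug was suspended in saline and dosed by mouth on a run of days in every week. A field of the sample records gives atorvastatin as the treatment of all 6 mice and another tells saline from atorvastatin, and the groups followed the latter. By the study's account most of the statin-treated mice had died by that time, and its count of mice in the Db group fell over time too, so both groups stand for the mice that remained.

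A library was sequenced for each mouse from whole-kidney RNA, with library totals of 13134930, 11381678 and 12426051 in Db replicates 1 to 3 and of 14578023, 14667909 and 13133241 in Db + Ato10 replicates 1 to 3. A gene with 3 counts stood at 0.197 to 0.259 CPM (TMM-scaled counts per 1e6), depending on the library, and this floor covers counting error only. Every member was far above it, the lowest single value being 19.98 CPM for Pdk4 in Db replicate 3. The tissue label was checked with 8 kidney markers, and all 8 were detected in each library, with Kap, an androgen-regulated proximal tubule gene, the most abundant by TPM. They summed to 16201, 9744 and 10510.2 TPM in Db replicates 1 to 3 and to 6090.0, 5109 and 9645 TPM in Db + Ato10 replicates 1 to 3.

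The Db replicate 1 library went against the description of the animals. The methods of the study give the mice as male, but the Y-linked genes Ddx3y, Eif2s3y, Kdm5d and Uty had 1, 1, 0 and 0 counts in Db replicate 1, against at least 177 counts of each in the other 5 libraries. Eif2s3y was the most abundant of the list, which summed to 0.1, 78.0 and 68.2 TPM in Db replicates 1 to 3 and to 73.7, 91.5 and 68.8 TPM in Db + Ato10 replicates 1 to 3. The 5 genes with higher expression in male mouse kidney, led by Kap, gave no such split, with sums of 9429.8, 3171 and 3936 TPM in Db replicates 1 to 3 and 2911, 2922 and 4183 TPM in Db + Ato10 replicates 1 to 3, and Kap itself was highest in Db replicate 1 (2357 CPM, against 621 and 824 CPM in Db replicates 2 and 3). The 2 genes with higher expression in females, Slc7a12 and Prlr, of which Slc7a12 was the more abundant by TPM, summed to 153, 47.0 and 188 and 17.9, 25.9 and 86.0 TPM in the same order, so Db replicate 1 was not apart from the other Db libraries there. Results are therefore also given without Db replicate 1.

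As a whole the FAO genes were lower in Db + Ato10 replicates 1 and 2 and near or above the Db level in Db + Ato10 replicate 3. Relative to the Db mean of log2 CPM, their medians were 0.044, 0.12 and -0.14 in Db replicates 1 to 3 and -0.85, -0.32 and 0.20 in Db + Ato10 replicates 1 to 3. In Db + Ato10 replicate 1, 32 of the 35 genes lay below every Db library, and the 1 gene above them was Pdk4. In Db + Ato10 replicate 2, 20 were below every Db library and 5 above (Crot, Acaa1b, Eci2, Pex11a and Cyp4a14). In Db + Ato10 replicate 3, 3 were below (Ppargc1a, Hadha and Hadhb) and 14 above. Over all 13679 tested genes 5591, 4680 and 3280 lay below every Db library in Db + Ato10 replicates 1 to 3, and 5275, 4799 and 3208 lay above.

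Between the groups, the median log2 fold change of the 35 genes was -0.35, with 27 negative and 8 positive values between -1.06 and 0.56. Over all tested genes the median was -0.0063. With edgeR's quasi-likelihood test, 0 of the 35 genes changed more than 1.5-fold at an adjusted p-value (Benjamini-Hochberg) under 0.05, and the share of all tested genes was 0.0% (0 genes). When p-values under 0.05 were counted without adjustment, 1 member, Ppargc1a, was lower and 0 were higher, against 5.71% and 11.2% of all tested genes. DESeq2 called 1 of the 35, Ppargc1a, where it called 1.3% of all genes as lower, and limma-voom called 0. The 3 libraries of each group did not overlap for 3 members, Ppargc1a, Hadha and Hadhb, all lower in the Db + Ato10 group, and for 0 members in the other direction, against 11.3% of all tested genes that were lower and 1640 of the 13679 that were higher. So the rules called nothing particular to these genes.

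The counts and the median depended on which libraries were included, as did single genes. Of the 35 log2 fold changes, 9 changed sign, 14 became smaller and 6 larger by over 1.5 times without Db + Ato10 replicate 1, and 5, 2 and 23 did so without Db + Ato10 replicate 3. Without Db + Ato10 replicate 3, edgeR called 2 members, Ppargc1a and Etfa, both lower, while 2.09% of the genes tested were called as lower, and the median of the members was -0.55. In that comparison 16 members were lower at an unadjusted p-value under 0.05, as were 12.7% of all genes tested, and 0 were higher, beside 17.1%. Without Db + Ato10 replicate 1, 1 member was lower and 3 were higher by that measure, beside 4.71% and 7.72% of all genes, the median was -0.033, and 18 of 35 values were negative. Without Db + Ato10 replicate 2, Db replicate 2 or Db replicate 3, 1, 1 and 2 members were lower at that threshold, beside 3.14%, 3.65% and 2.97% of all genes, and 0 were higher in each, beside 8.17%, 8.58% and 5.23%. Without Db replicate 2 the median was -0.23. Without Db replicate 1, the library that lacked Y-linked counts, the median was -0.32, edgeR called 0 members, and 1 member was lower and 0 were higher at an unadjusted p-value under 0.05, beside 2.52% and 5.16% of all genes. The count of 3 members that were lower without overlap rose to 20 when Db + Ato10 replicate 3 was left out, beside 24.3% of all genes tested. It rose to 6 when either Db replicate 2 or Db replicate 3 was left out, beside 18.9% and 15.1% of all genes. It stayed at 3 without Db + Ato10 replicate 1, Db + Ato10 replicate 2 or Db replicate 1, beside 14.4%, 14.5% and 14.6%. The count of 0 that were higher became 4 (Crot, Acaa1b, Eci2 and Pex11a) when Db + Ato10 replicate 1 was left out, where 2016 of 13415 genes did the same (15.0%). It became 1 when Db + Ato10 replicate 2 or Db replicate 2 was left out, beside 14.1% and 20.2% of all genes. It stayed at 0 without Db + Ato10 replicate 3, Db replicate 1 or Db replicate 3, beside 25.8%, 16.2% and 15.1%.

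**Figure D1:**
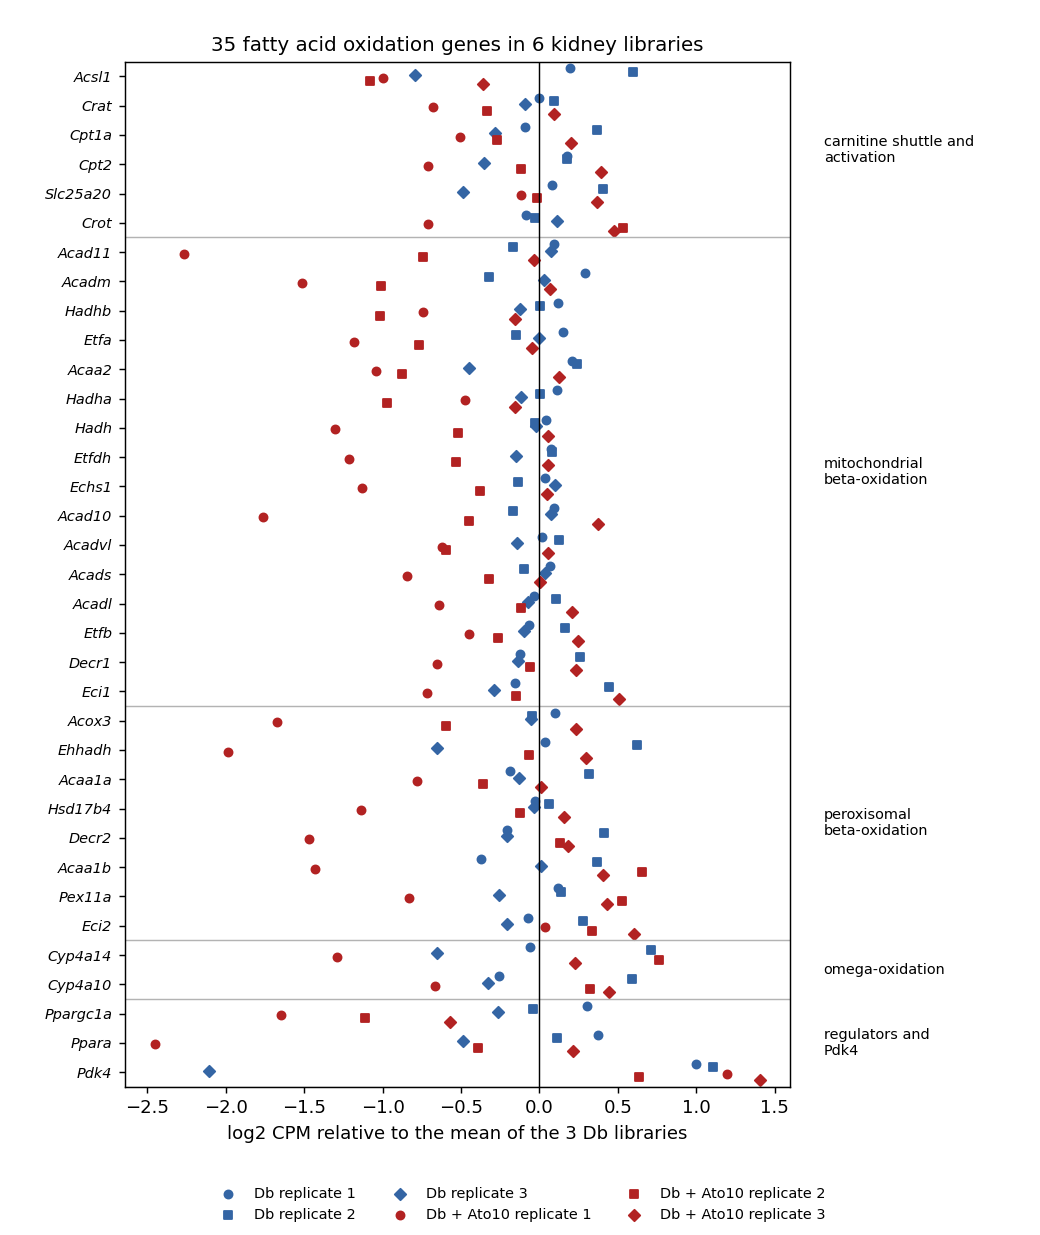
Log2 CPM of each of the 35 genes in each library relative to the mean of the 3 Db libraries (x axis), with genes ordered by log2 fold change within their class (y axis). Blue symbols are Db and red symbols Db + Ato10 libraries, and the red circles (Db + Ato10 replicate 1) lie below every Db library for 32 genes, while the red diamonds (Db + Ato10 replicate 3) do so for 3.

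Marker genes of kidney and other cells also differed between the libraries, with an order that depended on the list. The 16 proximal tubule markers had negative log2 fold changes in 16 of 16 cases, 0 of them at an unadjusted edgeR p-value under 0.05 (all tested genes: 5.71% lower), with Pck1, a gluconeogenic enzyme gene, the most abundant. They summed to 20398, 13356 and 17549.5 TPM in Db replicates 1 to 3 and to 1912, 9094 and 17192 TPM in Db + Ato10 replicates 1 to 3. So they were lowest in Db + Ato10 replicate 1, low in replicate 2 and within the Db range in replicate 3. In the kidney as a whole, fewer proximal tubule cells and less RNA of these genes per cell cannot be told apart.

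The 9 leukocyte markers, of which 7 were tested and 7 were higher at an unadjusted edgeR p-value under 0.05 (all tested genes: 11.2%, here and for the next lists), summed to 84.0, 166 and 119 TPM in Db replicates 1 to 3 and to 25064, 1336 and 179.7 TPM in Db + Ato10 replicates 1 to 3. Their most abundant gene was S100a8 of neutrophils, with 1.51, 1.90 and 0.483 CPM in Db replicates 1 to 3 and 3267, 27.3 and 2.12 CPM in Db + Ato10 replicates 1 to 3. Db + Ato10 replicate 1 held most of this signal, and Cd3e of T cells and Cd79a of B cells had at most 7 counts in each Db library. The 6 fibroblast markers, led by Dcn, were all higher at the same unadjusted threshold, with sums of 31.7, 60.6 and 51.3 and 583, 211 and 84.3 TPM in the same order of libraries. The 6 tubular injury markers, led by Spp1 (osteopontin), were also all higher, with sums of 3862, 4588 and 2451 and 21568, 40400.2 and 12138 TPM. These were above every Db library in each Db + Ato10 library, with the highest sum in replicate 2.

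The 8 markers of the thick ascending limb and distal tubule, led by Umod, had a median log2 fold change of -1.21, and their sums were 6509.7, 7306 and 6045 TPM in Db replicates 1 to 3 and 3504, 1754 and 4284 TPM in Db + Ato10 replicates 1 to 3. The 6 collecting duct markers, led by the water channel gene Aqp2, had a median of -0.83 and sums of 839.6, 633 and 1064 and 586, 370.4 and 648 TPM. At the unadjusted threshold 5 of the 8 and 5 of the 6 were lower, beside 5.71% of all tested genes. Unlike the proximal tubule list, the thick ascending limb and distal tubule list was also low in Db + Ato10 replicate 3. Tissues that oxidize fatty acids strongly were looked for as a source of RNA. Of the adipocyte markers, Adipoq and Plin1 had at most 1 count in any library, while Fabp4, also a gene of endothelial cells, made up most of the list's sums of 309.8, 216 and 216 and 496, 126 and 269 TPM. Cidec had 4, 4 and 6 counts in Db replicates 1 to 3 and 14, 24 and 12 counts in Db + Ato10 replicates 1 to 3. It passed the filter for testing only through the Db + Ato10 libraries, where it was higher, so its p-value is not read. The skeletal muscle markers, led by Mylpf, with Ckm at 0 counts in 5 of 6 libraries, summed to at most 3.49 TPM. The hepatocyte list, led by Serpina1a, which the kidney also expresses, summed to 366, 287 and 432 and 160.5, 528 and 659 TPM, with Cyp2c29 at no more than 1 count. Of that list, Fgb, a fibrinogen gene, was higher at the unadjusted threshold, with 1.19, 8.73 and 0.886 CPM in Db replicates 1 to 3 and 18.1, 53.1 and 38.9 CPM in Db + Ato10 replicates 1 to 3. Alb, the albumin gene, had 31.0, 19.8 and 21.7 CPM in Db replicates 1 to 3 and 1.38, 1.48 and 17.6 CPM in Db + Ato10 replicates 1 to 3, so the groups of both genes did not overlap, in opposite directions. The urothelium list, led by Krt5, summed to 6.99, 3.40 and 4.91 and 72.3, 39.6 and 11.9 TPM. Of its 5 genes 2 were tested and went opposite ways, with log2 fold changes of 7.08 and -0.66. At the unadjusted threshold 1 was higher and 0 were lower, beside 11.2% and 5.71% of all tested genes. The higher gene was that with 7.08, in a list with at most 6.99 TPM in any Db library. It had little RNA in the Db group, so its p-value is not read. The part of these cells in the values of the FAO genes was not tested.

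The regulators came first in the order of the pathway. Ppargc1a (NCBI Gene 19017), the coactivator of PPARalpha and of mitochondrial biogenesis, had 149, 118 and 101 CPM in Db replicates 1 to 3 and 38.6, 55.9 and 81.5 CPM in Db + Ato10 replicates 1 to 3. Every Db + Ato10 library was below every Db library. The means were 58.7 ± 21.6 and 123 ± 24.6 CPM (SD, n = 3 each) in the Db + Ato10 group and the Db group, and edgeR gave a log2 fold change of -1.06 with a standard error of 0.30 and an adjusted p of 0.239. DESeq2 gave an adjusted p of 0.0346, and edgeR without Db + Ato10 replicate 3 gave 0.0373, where the smallest adjusted p of any member ran from 0.0346 to 0.588 over the alternatives. The log2 fold change stayed negative in every alternative, between -1.37 and -0.83, and was -0.89 without Db replicate 1.

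Ppara (NCBI Gene 19013), which encodes PPARalpha itself, had 232, 193 and 128 CPM in Db replicates 1 to 3 and 32.6, 136 and 207 CPM in Db + Ato10 replicates 1 to 3. Db + Ato10 replicate 1 stood far below the other 5 libraries, while replicates 2 and 3 lay inside the Db range. By edgeR its log2 fold change was -0.56 with a standard error of 0.61 (adjusted p = 0.627), and -0.096 without Db + Ato10 replicate 1. Pdk4 (NCBI Gene 27273), whose kinase shuts off pyruvate dehydrogenase when fatty acids are burnt, did not follow Ppara. It had 174, 187 and 19.98 CPM in Db replicates 1 to 3 and 198, 134 and 230.1 CPM in Db + Ato10 replicates 1 to 3. Here the library apart was a Db library, replicate 3, and the other 5 libraries spanned 134 to 230.1 CPM. Its log2 fold change of 0.56 (standard error 0.73) became 0.057 without Db replicate 3, and 0.88 and 0.96 without Db replicates 1 and 2. It was 1.08 with limma-voom, 0.96 and 1.04 with limma on log2(TPM + 1) and log2(FPKM + 1), and 0.94 with the replicate block. The median of these 3 genes, -0.56, was that of Ppara, and it was -0.096, -1.12 and -0.35 when Db + Ato10 replicate 1, Db + Ato10 replicate 3 or Db replicate 1 was left out. Their medians relative to the Db mean were 0.37, 0.11 and -0.49 in Db replicates 1 to 3 and -1.65, -0.39 and 0.21 in Db + Ato10 replicates 1 to 3.

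For the genes of fatty acid activation and the carnitine shuttle, 4 log2 fold changes were negative and 2 positive, and their median was -0.14. Their medians relative to the Db mean were 0.039, 0.27 and -0.32 in Db replicates 1 to 3 and -0.69, -0.19 and 0.28 in Db + Ato10 replicates 1 to 3, so 1 of 3 Db + Ato10 libraries lay below every Db library. Leaving out Db + Ato10 replicate 1 gave a median of 0.057, and leaving out Db + Ato10 replicate 3 one of -0.39. Leaving out Db replicates 1, 2 or 3 gave -0.12, 0.0065 or -0.29. Acsl1 (NCBI Gene 14081), a long-chain acyl-CoA synthetase gene that supplies the substrate, had 598, 790.1 and 302 CPM in Db replicates 1 to 3 and 261, 247 and 408 CPM in Db + Ato10 replicates 1 to 3. Db + Ato10 replicates 1 and 2 were below every Db library and replicate 3 was not, and the Db libraries themselves lay far apart. By edgeR its log2 fold change was -0.88 with a standard error of 0.39 (adjusted p = 0.316), and -0.56 without Db replicate 2.

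Cpt1a, the transferase of the outer mitochondrial membrane that malonyl-CoA inhibits, had 530.0, 729 and 464 CPM in Db replicates 1 to 3 and 397, 468 and 648 CPM in Db + Ato10 replicates 1 to 3. Only Db + Ato10 replicate 1 lay below every Db library. The carrier of the inner membrane, Slc25a20, and the transferase inside it, Cpt2, had log2 fold changes of 0.047 and -0.096, both smaller than their standard errors of 0.26 and 0.31. Crat, which makes acetylcarnitine and other short esters, had -0.28 (standard error 0.22). Crot, which makes medium-chain esters in peroxisomes, had 173, 179.7 and 198 CPM in Db replicates 1 to 3 and 112, 265 and 254 CPM in Db + Ato10 replicates 1 to 3. Of the 6 genes of this class it alone had both Db + Ato10 replicates 2 and 3 above every Db library, while replicate 1 was below every Db library.

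Genes of mitochondrial beta-oxidation had log2 fold changes below 0 in 16 of 16 cases, from -0.76 to -0.068, with a median of -0.45. Their medians relative to the Db mean lay close together in Db replicates 1 to 3, at 0.068, 0.0039 and -0.085, and were -0.94, -0.53 and 0.053 in Db + Ato10 replicates 1 to 3. In Db + Ato10 replicate 1, 16 of 16 genes were below every Db library, in replicate 2 14 of 16, and in replicate 3 2 of 16, beside 5591, 4680 and 3280 of the 13679 tested genes. In the same order 0, 0 and 5 of 16 were above every Db library, beside 5275, 4799 and 3208 of all. With edgeR 0 of the 16 passed an unadjusted p-value of 0.05. The summed TPM of the class was 5873 ± 355 (SD, n = 3) in the Db group and 4241 ± 1591 (SD, n = 3) in the Db + Ato10 group, a difference slightly larger than the SD of the latter. The median was -0.20 when Db + Ato10 replicate 1 was left out, -0.76 when Db + Ato10 replicate 3 was and -0.40 when Db replicate 1 was, and it was negative in every alternative.

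Hadha (NCBI Gene 97212) and Hadhb (NCBI Gene 231086) encode the alpha and beta subunits of the trifunctional protein, which carries out the last 3 steps on long chains. Hadha had 472, 437 and 402 CPM in Db replicates 1 to 3 and 314, 222 and 392 CPM in Db + Ato10 replicates 1 to 3. Hadhb had 502, 463 and 423 CPM in Db replicates 1 to 3 and 275, 228 and 414 CPM in Db + Ato10 replicates 1 to 3. In both genes each Db + Ato10 library was below every Db library, replicate 3 by a small margin, and replicate 2 rather than replicate 1 was the lowest. The log2 fold changes were -0.50 (standard error 0.24) and -0.60 (standard error 0.25), with edgeR adjusted p-values of 0.335 and 0.303. They became -0.30 and -0.41 when Db + Ato10 replicate 2 was left out, and -0.69 and -0.86 when replicate 3 of that group was.

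The first step is taken by acyl-CoA dehydrogenases of different chain lengths. Acadm, for medium chains, had 848, 555 and 708 CPM in Db replicates 1 to 3 and 242, 344 and 725 CPM in Db + Ato10 replicates 1 to 3. The lowest 2 of the 6 libraries were Db + Ato10 replicates 1 and 2, and replicate 3 was above 2 of the 3 Db libraries. Its log2 fold change of -0.69 (standard error 0.43) was -1.25 without Db + Ato10 replicate 3 and -0.39 without replicate 1. Acadvl for very long, Acadl for long and Acads for short chains had log2 fold changes of -0.36, -0.14 and -0.35. That of Acadl became 0.059 without Db + Ato10 replicate 1.

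Acad11, a further member of the dehydrogenase family, had the largest negative log2 fold change of the class, -0.76 (standard error 0.51), with 368, 306 and 363 CPM in Db replicates 1 to 3 and 71.6, 206 and 336 CPM in Db + Ato10 replicates 1 to 3. Db + Ato10 replicate 1 was the lowest by a wide margin. Without it the log2 fold change was -0.35, and Hadhb, Hadha, Acadm and Etfa were then more negative (-0.52, -0.50, -0.39 and -0.36). It was -1.31 without Db + Ato10 replicate 3. Its relative Acad10 had -0.38, and because its counts were not whole numbers in any library, part of its reads was shared with another feature and its values are uncertain.

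The later steps in the matrix gave a similar order of libraries. Etfa (NCBI Gene 110842), 1 of the 2 subunits of the flavoprotein that takes electrons from the dehydrogenases, had 366, 298 and 330.2 CPM in Db replicates 1 to 3 and 145, 194 and 319.6 CPM in Db + Ato10 replicates 1 to 3. Replicates 1 and 2 of the Db + Ato10 group lay below every Db library and replicate 3 inside the Db range. Its log2 fold change was -0.59 (standard error 0.30, edgeR adjusted p = 0.353), and -0.96 without Db + Ato10 replicate 3 (edgeR adjusted p = 0.0490). Etfb, the other subunit, was the most abundant gene of the class by TPM (973 ± 94.6 TPM in the Db group, SD, n = 3) and had a log2 fold change of -0.13. Etfdh, which passes the electrons on to ubiquinone, had -0.48. The values of Etfa, Etfb and Etfdh were -0.36, 0.017 and -0.21 without Db + Ato10 replicate 1.

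Among the enzymes of hydration, dehydrogenation and thiolysis, Echs1, the short-chain hydratase, Hadh, the short-chain 3-hydroxyacyl-CoA dehydrogenase, and Acaa2, the mitochondrial thiolase, had log2 fold changes of -0.41, -0.49 and -0.53. Their standard errors were 0.30, 0.34 and 0.37. The values were -0.14, -0.20 and -0.32 without Db + Ato10 replicate 1, and -0.70, -0.85 and -0.98 without Db + Ato10 replicate 3. The auxiliary enzymes for unsaturated chains, the isomerase Eci1 and the dienoyl-CoA reductase Decr1, were among the genes of the class with the smallest log2 fold changes, at -0.068 and -0.13. Both turned positive without Db + Ato10 replicate 1 (0.19 and 0.088) and without Db replicate 2 (0.19 and 0.015).

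Genes of peroxisomal beta-oxidation had 5 negative and 3 positive log2 fold changes and a median of -0.26. Their medians relative to the Db mean were -0.048, 0.30 and -0.17 in Db replicates 1 to 3 and -1.28, 0.032 and 0.27 in Db + Ato10 replicates 1 to 3. Only Db + Ato10 replicate 1 was below every Db library, with 7 of 8 genes below every Db library. In Db + Ato10 replicate 2, 3 of 8 were below and 3 above, and in replicate 3 0 and 5. Of the 13679 tested genes, 5591, 4680 and 3280 were below every Db library in Db + Ato10 replicates 1 to 3, and 5275, 4799 and 3208 above. With Db + Ato10 replicate 1 left out the median was 0.089, and with Db + Ato10 replicate 3 left out it was -0.51. With Db replicate 2 left out it was -0.016, and with Db replicate 1 left out -0.31.

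Ehhadh, the L-bifunctional enzyme and a PPARalpha target, had 633, 954 and 393 CPM in Db replicates 1 to 3 and 156, 591 and 761 CPM in Db + Ato10 replicates 1 to 3. The Db libraries lay far apart, and of the Db + Ato10 libraries only replicate 1 lay outside them. Acox3, an oxidase of branched chains, had 300.5, 271 and 269.5 CPM in Db replicates 1 to 3 and 87.9, 185 and 329 CPM in Db + Ato10 replicates 1 to 3. Here replicates 1 and 2 were below, and replicate 3 above, every Db library. Hsd17b4, the D-bifunctional enzyme, and Decr2, the peroxisomal dienoyl-CoA reductase, had log2 fold changes of -0.27 and -0.24, and both turned positive without Db + Ato10 replicate 1 (0.029 and 0.14).

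Eci2, the peroxisomal enoyl-CoA isomerase, was the member of this class with the largest positive log2 fold change, 0.33 (standard error 0.21, edgeR adjusted p = 0.430). It had 126, 160.4 and 114 CPM in Db replicates 1 to 3 and 135, 167 and 201 CPM in Db + Ato10 replicates 1 to 3. Even Db + Ato10 replicate 1, the lowest library for most members, was above 2 of the 3 Db libraries, and the sign was the same in every alternative, though the groups overlapped. Pex11a, a gene of peroxisome division, had 98.7, 100.01 and 76.0 CPM in Db replicates 1 to 3 and 50.9, 131 and 123 CPM in Db + Ato10 replicates 1 to 3. Replicates 2 and 3 of the Db + Ato10 group were above, and replicate 1 below, every Db library. Its log2 fold change of 0.15 was -0.090 with limma on log2(TPM + 1).

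The thiolase genes Acaa1a and Acaa1b encode closely related enzymes and were not alike in Db + Ato10 replicate 2. Acaa1a had 135, 192 and 141 CPM in Db replicates 1 to 3 and 89.3, 120.1 and 155 CPM in Db + Ato10 replicates 1 to 3. Acaa1b had 271, 452 and 354 CPM in Db replicates 1 to 3 and 129.98, 554 and 465 CPM in Db + Ato10 replicates 1 to 3. In replicate 2 Acaa1a was below and Acaa1b above every Db library. Within a library, the TPM of Acaa1b divided by that of Acaa1a was 2.13, 2.503 and 2.68 in Db replicates 1 to 3 and 1.58, 4.91 and 3.19 in Db + Ato10 replicates 1 to 3. Their counts were not whole in any library, so reads were divided between similar sequences and the ratio is uncertain. The log2 fold change of Acaa1b, 0.094, was -0.11 with limma-voom and -0.065 without Db replicate 1.

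The omega-oxidation genes Cyp4a10 and Cyp4a14, both strongly induced by PPARalpha agonists in rodents, had log2 fold changes near 0, 0.046 (standard error 0.41) and 0.018 (standard error 0.58). Cyp4a10, the most abundant of the 35 genes by mean TPM over the 6 libraries, had 1033, 1864 and 984 CPM in Db replicates 1 to 3 and 780.0, 1545 and 1682 CPM in Db + Ato10 replicates 1 to 3. Cyp4a14 had 1260.5, 2154 and 838 CPM in Db replicates 1 to 3 and 537, 2231 and 1538 CPM in Db + Ato10 replicates 1 to 3. Db + Ato10 replicate 1 was the lowest library for both genes. Db + Ato10 replicates 2 and 3 lay inside the Db range, except replicate 2 for Cyp4a14, which was just above it. The median of the pair was 0.032, -0.12 with limma on log2(TPM + 1), -0.031 with limma-voom, and -0.065, 0.43 and -0.18 when Db replicate 1, 2 or 3 was left out. When Db + Ato10 replicate 1, 2 or 3 was left out it was 0.38, -0.25 and -0.083, so it had no stable sign. The log2 fold changes of Cyp4a10 and Cyp4a14 were -0.063 and -0.44 without Db + Ato10 replicate 2 and -0.054 and -0.18 with limma on log2(TPM + 1). Counts of Cyp4a10 were not whole and may be shared with its relatives.

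Set side by side, the classes were all low in Db + Ato10 replicate 1 and parted most in replicate 2. The median log2 fold changes were -0.14, -0.45, -0.26 and 0.032 for the carnitine shuttle, mitochondrial, peroxisomal and omega-oxidation genes, and -0.12, -0.40, -0.31 and -0.065 without Db replicate 1. The mitochondrial class had the lowest of these 4 medians in every alternative tried. The peroxisomal median minus the mitochondrial median was -0.12, 0.29 and -0.084 in Db replicates 1 to 3 and -0.34, 0.56 and 0.21 in Db + Ato10 replicates 1 to 3 (log2). The omega-oxidation median minus the mitochondrial median was -0.23, 0.65 and -0.41 and -0.036, 1.07 and 0.28 in the same order. Db + Ato10 replicate 2 thus had the largest excess of peroxisomal and omega-oxidation over mitochondrial genes of the 6 libraries, and Db replicate 2 the second largest. Of the TPM that the 35 genes held together, the mitochondrial class took 57.8, 47.9 and 59.9% in Db replicates 1 to 3 and 55.2, 41.5 and 52.1% in Db + Ato10 replicates 1 to 3, and the 2 omega-oxidation genes 17.1, 25.2 and 16.0% and 19.0, 30.5 and 21.2%. These differences between classes are descriptions of single libraries and the groups overlapped in each.

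Mitochondrial genes outside FAO were set beside the FAO genes. A list of 14 genes of the citrate cycle, the respiratory chain and mitochondrial import, with Atp5b the most abundant, had a median log2 fold change of -0.45 (13 of 14 negative), next to -0.45 for the 16 genes of mitochondrial beta-oxidation. Its medians were 0.092, -0.13 and 0.025 in Db replicates 1 to 3 and -0.75, -0.65 and -0.038 in Db + Ato10 replicates 1 to 3. Of this list 1 gene, Idh3a of the citrate cycle, was lower at an unadjusted edgeR p-value under 0.05 and 0 were higher (all tested genes: 5.71% and 11.2%). Idh3a had a log2 fold change of -0.53 and groups that did not overlap, while 11.3% of all tested genes were lower without overlap. Subtracting the medians of this list from those of the FAO class left -0.024, 0.14 and -0.11 and -0.19, 0.13 and 0.092. With the proximal tubule markers subtracted instead, the mitochondrial class was at -0.14, 0.37 and -0.19 and 1.93, 0.37 and -0.10. So in Db + Ato10 replicate 1 the FAO genes were lower than in the Db libraries, but by less than the proximal tubule markers were.

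**Figure D2:**
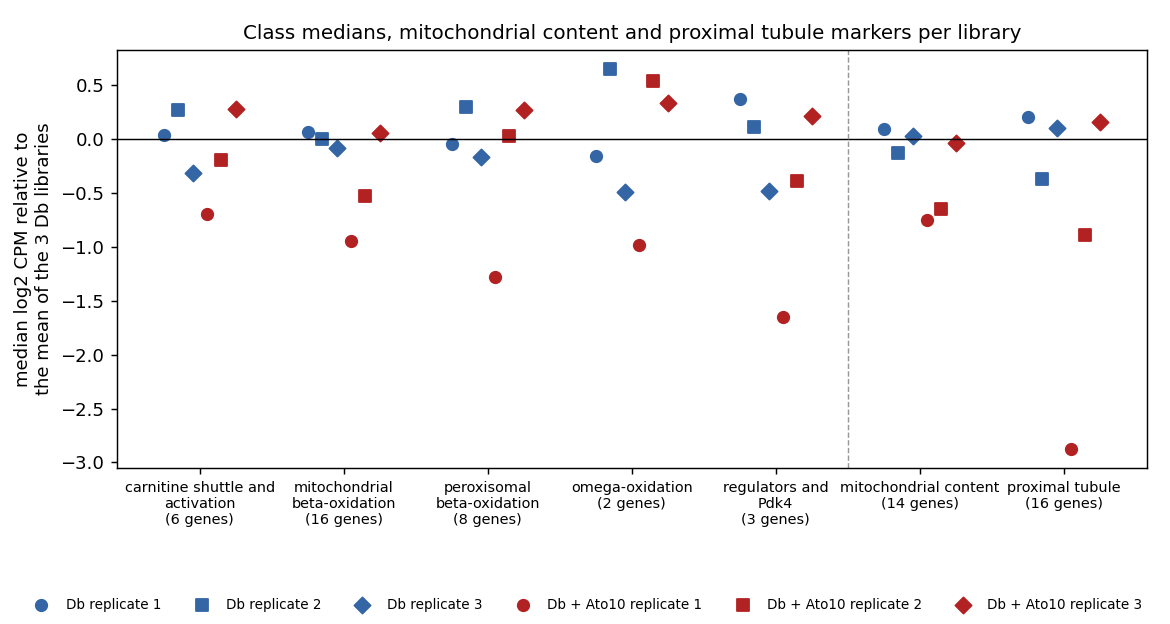
Median log2 CPM relative to the mean of the 3 Db libraries (y axis) of the 5 classes of FAO genes and, right of the dashed line, of the mitochondrial content list and the proximal tubule markers (x axis), 1 symbol per library. In Db + Ato10 replicate 2 (red squares) the mitochondrial median was -0.53 while the peroxisomal median was 0.032 and the omega-oxidation median 0.54.

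**Figure D3:**
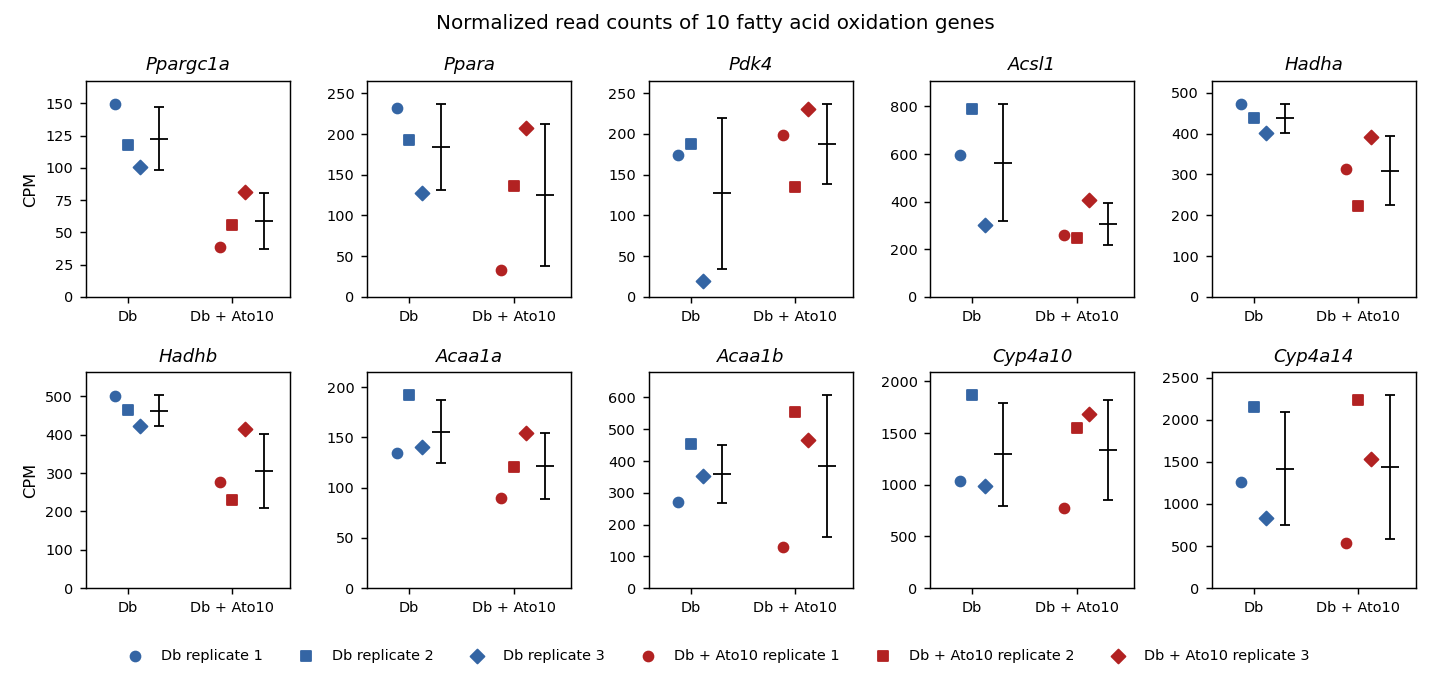
CPM (y axis, from 0) of 10 FAO genes in each of the 3 Db and 3 Db + Ato10 libraries (x axis), with the mean and SD (n = 3) as black bars. The groups are apart for Ppargc1a, Hadha and Hadhb and overlap for the other 7 genes.

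Other genes of the pathway were read from 9 lists that together held 105 genes in the table, of which 99 were tested. With edgeR 0 of them were called, 8 were lower and 4 higher at an unadjusted p-value under 0.05, beside 5.71% and 11.2% of all tested genes. DESeq2 called 3 of the 99 as lower (Acsl3, Acadsb and Esrrg) and 2 as higher (Plin2 and Ucp2), beside 1.3% and 5.19% of all genes. When Db + Ato10 replicate 3 was left out, edgeR called 7 of 98 as lower (these 3 and Acsm3, Cyp4f14, Tfam and Sirt3) and 3 as higher (Plin2, Ucp2 and Cyp4f17), beside 2.09% and 6.03%. Cyp4f14 had 57, 25 and 61 counts in Db replicates 1 to 3, and 8 and 8 in Db + Ato10 replicates 1 and 2. In that comparison it passed the filter for testing only through the Db libraries, where it was higher, so its call is not read. The median log2 fold change of the lists was -0.20. The 4 genes of carnitine uptake and synthesis had a median of -0.57, all 4 negative. Their most abundant gene was Aldh9a1, an enzyme of carnitine synthesis, with -0.26. Of 14 genes of acyl-CoA synthesis and hydrolysis, 1 was lower and 1 higher at the unadjusted threshold. Acsl3, an acyl-CoA synthetase gene, had 27.0, 25.7 and 28.2 CPM in Db replicates 1 to 3 and 13.6, 14.9 and 19.2 CPM in Db + Ato10 replicates 1 to 3. Acot9, a mitochondrial thioesterase gene, had 50.5, 49.4 and 47.7 CPM in Db replicates 1 to 3 and 90.8, 67.1 and 60.2 CPM in Db + Ato10 replicates 1 to 3. For both genes the groups did not overlap.

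Among 3 genes of malonyl-CoA control, Acacb, whose product makes the malonyl-CoA that restrains Cpt1a, was lower at the unadjusted threshold, with 74.0, 80.5 and 73.1 CPM in Db replicates 1 to 3 and 45.2, 24.3 and 55.6 CPM in Db + Ato10 replicates 1 to 3 and groups that did not overlap. Mlycd, which removes malonyl-CoA, had a log2 fold change of -0.16 beside -0.86 for Acacb. The 5 dehydrogenases of branched-chain and lysine breakdown and complex I assembly were all negative, with a median of -0.63. Of these, Acadsb, for short branched chains, passed the unadjusted threshold, with a log2 fold change of -0.89 (standard error 0.22) and groups that did not overlap.

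Of 22 tested genes of peroxisomal alpha-oxidation, import and biogenesis, 0 passed the unadjusted threshold. Their median was -0.23, and the most abundant, Phyh of alpha-oxidation, had -0.40. Of 10 tested genes of other omega-oxidation enzymes, 1 passed it. Cyp4f17, a cytochrome gene, had 0.87, with 9.83, 9.77 and 8.30 CPM in Db replicates 1 to 3 and 16.5, 24.0 and 10.4 CPM in Db + Ato10 replicates 1 to 3. The median of that list was -0.090.

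For the list of other PPARalpha targets, 16 of them tested, the median log2 fold change was 0.042. Relative to the Db mean its medians were -0.19, 0.48 and -0.28 in Db replicates 1 to 3 and -0.35, 0.13 and 0.38 in Db + Ato10 replicates 1 to 3, so Db + Ato10 replicate 1 was below every Db library. Plin2, the coat protein gene of lipid droplets, had 102, 159 and 93.7 CPM in Db replicates 1 to 3 and 555, 414 and 234 CPM in Db + Ato10 replicates 1 to 3. Each Db + Ato10 library was above every Db library, and the log2 fold change was 1.77 (standard error 0.37, edgeR adjusted p = 0.239). DESeq2 gave Plin2 an adjusted p of 0.000823, and edgeR without Db + Ato10 replicate 3 gave 0.0282. Ucp2, a mitochondrial carrier gene that macrophages also express, had 153, 248 and 147 CPM in Db replicates 1 to 3 and 993, 490.4 and 217 CPM in Db + Ato10 replicates 1 to 3. Ucp2 was highest in Db + Ato10 replicate 1, the library with the most leukocyte marker RNA, and the groups overlapped. Angptl4, which encodes an inhibitor of lipoprotein lipase, had 187, 214 and 29.9 CPM in Db replicates 1 to 3 and 218, 253 and 256 CPM in Db + Ato10 replicates 1 to 3. Like Pdk4 it was far lower in Db replicate 3 than in the other 5 libraries, and its groups did not overlap.

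Nuclear receptors and co-regulators beside Ppara and Ppargc1a showed 4 genes that were lower at the unadjusted threshold of 20 tested, and 0 higher, beside 5.71% and 11.2% of all tested genes. These were Ppargc1b, the close relative of Ppargc1a, and the estrogen-related receptors Esrra, Esrrb and Esrrg, which bind these coactivators and drive mitochondrial genes. Esrrg had 81.9, 68.3 and 75.9 CPM in Db replicates 1 to 3 and 32.1, 38.8 and 56.9 CPM in Db + Ato10 replicates 1 to 3. Ppargc1b had 25.8, 29.6 and 24.7 CPM in Db replicates 1 to 3 and 13.3, 16.6 and 20.7 CPM in Db + Ato10 replicates 1 to 3. The log2 fold changes were -0.66, -0.49, -1.17 and -0.82 for Ppargc1b, Esrra, Esrrb and Esrrg. For all 4 each Db + Ato10 library was below every Db library, replicate 3 included. Of the 20 tested genes of this list, 5 were lower and 0 higher without overlap. Of the 99 tested genes of all these pathway lists together, 10 were lower and 4 higher without overlap. Over all tested genes 11.3% were lower, and 1640 of the 13679 were higher, without overlap. The partners of PPARalpha, Rxra and Rxrb, had -0.075 and -0.17. Of 5 genes of other pyruvate dehydrogenase kinases and phosphatases, Pdk1 was lower at the unadjusted threshold, with -0.76 (standard error 0.22), where Pdk4 had 0.56.

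The transcript table held 96 transcripts of the 35 genes, 80 of them tested. With edgeR 0 were called, as were 0.0% of all 30175 tested transcripts, and 3 were lower and 3 higher at an unadjusted p-value under 0.05, beside 2.81% and 5.38% of all tested transcripts. DESeq2 called 1 of the 80, beside 2.96% of all transcripts. The 3 lower ones were NM_008904.2 of Ppargc1a, NM_001302163.1 of Acsl1 and XM_011240801.2 of Acox3, and the 3 higher ones XM_006531654.2 of Cpt1a and NM_001110331.1 and XM_006516677.1 of Eci2. XM_011240801.2 had 2.59, 1.79 and 2.55 CPM in Db replicates 1 to 3 and 0.271, 0.272 and 0.702 CPM in Db + Ato10 replicates 1 to 3. It passed the filter for testing only through the Db libraries, where it was higher, so its p-value is not read. In Db replicates 1 to 3, XM_006531654.2 had 0.0, 0.171 and 2.55 CPM. In Db + Ato10 replicates 1 to 3 it had 23.8, 2.11 and 84.8 CPM. Without the Db + Ato10 libraries, where it was higher, XM_006531654.2 would not have passed that filter, so its p-value is not read either. Of the 35 genes, 25 had 1 tested transcript with at least 10% of the counts of the gene and 10 had 2 or more. The split between transcripts of 1 gene is an estimate from shared reads. In Ppargc1a the main transcript NM_008904.2 held 58.6 to 70.4% of the gene in the Db group and 45.8 to 71.3% in the Db + Ato10 group, and its log2 fold change was -1.17. In Hadhb the transcript NM_145558.2 held 82.0 to 85.7% and 81.8 to 84.7%, so the split was alike in both groups.

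In Acsl1 the transcript NM_001302163.1 held 42.5 to 52.3% of the gene in the Db group and 13.3 to 32.1% in the Db + Ato10 group, with a log2 fold change of -1.93. The other transcripts of Acsl1 with at least 10% of its counts, XM_006509262.3 and NM_007981.4, had 0.37 and -1.05, and XM_006509264.3, with 0.214% of the counts, had -1.53. The shares of NM_001302163.1 did not overlap between the groups. In Ehhadh the main transcript NM_023737.3 held 72.6 to 78.8% in the Db group and 35.8 to 69.8% in the Db + Ato10 group, also without overlap. In Acox3, NM_030721.2 held 51.4 to 60.4% and 65.1 to 73.0%, with a log2 fold change of -0.19. XM_017321181.1 of Acox3 held 24.6 to 26.0% and 16.4 to 16.6%, with a log2 fold change of -1.09. The shares of both did not overlap between the groups, while those of XM_006504198.3 did (8.73 to 16.3% and 1.82 to 12.7%). These splits were not tested. How often shares did not overlap over all transcripts was not counted, so they are not read as particular to these genes. In Eci2, NM_001110331.1 held 29.7 to 34.4% and 27.8 to 44.3% and had a log2 fold change of 0.52. The transcripts of Acad10, Cpt1a, Crat and Ppara overlapped in share, and a transcript of Ppara, NM_001113418.1, ranged from 1.61 to 79.1% between the Db libraries alone.

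PPARalpha binds with RXR to a direct repeat of the hexamer AGGTCA with 1 base (N) between the copies. The promoter windows of RefSeq (GRCm38.p6, from 250 bases before to 50 after each gene start) were searched on both strands for this repeat, and 29 of the 35 genes had a window, 30 windows in all. The 6 without a window were Acaa2, Crat, Cyp4a10, Cyp4a14, Decr1 and Hsd17b4, so the omega-oxidation class was not searched. An exact match was found in 0 of the 30 and in 0.0396% of all 32851 windows. With at most 2 mismatches in the 12 fixed letters, 3 of 30 windows (10.0%) held a match, against 3.86% of all windows. The 3 matches are shown because they are those nearest to the repeat among the members, with the hexamers in capitals, each read 5′ to 3′ along the repeat. They lie at chr7:140116492-140116504 for Echs1 and chr9:108662142-108662154 for Slc25a20, both on the strand of the gene, and at chr9:55512308-55512320 for Etfa, on the opposite strand. That of Slc25a20 lies after the gene start and the other 2 before it.
Echs1: AGGTCAcGGGTCC
Etfa: AGGGCAaAGGTAA
Slc25a20: AGGTGAaAGGTCG
A match describes letters and not a bound site, and the absence of a match in a window says nothing of sites elsewhere.

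The windows of Acaa1a and Acaa1b are shown because these genes, whose products are closely related, differed in Db + Ato10 replicate 2. That of Acaa1a lies at chr9:119341044-119341343 on the plus strand and that of Acaa1b at chr9:119157044-119157343 on the minus strand. They are printed 5′ to 3′ along the gene, with no capitals because neither held the repeat.
Acaa1a: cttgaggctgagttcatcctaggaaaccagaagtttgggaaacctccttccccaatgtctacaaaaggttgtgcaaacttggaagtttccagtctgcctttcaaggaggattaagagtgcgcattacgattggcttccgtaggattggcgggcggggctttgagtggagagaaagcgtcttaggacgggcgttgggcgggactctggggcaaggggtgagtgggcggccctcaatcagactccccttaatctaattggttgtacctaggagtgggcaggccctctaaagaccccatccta
Acaa1b: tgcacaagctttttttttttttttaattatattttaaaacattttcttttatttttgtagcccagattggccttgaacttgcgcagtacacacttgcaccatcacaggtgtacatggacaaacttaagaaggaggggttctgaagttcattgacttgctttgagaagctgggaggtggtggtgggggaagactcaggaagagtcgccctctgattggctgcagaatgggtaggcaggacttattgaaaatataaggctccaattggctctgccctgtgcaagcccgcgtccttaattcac
Aligned end to end, the pair had the same base in 156 of 320 columns (48.8%). Unrelated windows were not aligned, so this share is not read as likeness of the promoters.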

How the data were processed

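Whole-kidney RNA was measured in 1 library from each of 3 Db and 3 Db + Ato10 mice. For genes and for transcripts the authors deposited expected counts (estimated reads, not normalized), and for genes the authors deposited FPKM (scaled to length and library size) and TPM (scaled to length and then to 1 total) as well. Per the labels, the submitters' processing notes name HISAT, Bowtie2 2.2.5 and the build mm9; the counting tool and use of strand are not given in the sources used here. Of the gene values 91.3% were whole, and 0 pairs of libraries were identical. Group means over libraries were deposited too and were not used.

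Counts were rounded to whole numbers and fitted over all genes with edgeR 4.0.16 in R 4.3.3 (TMM, quasi-likelihood F test, Benjamini-Hochberg adjustment). A gene or transcript was tested if 3 or more libraries had 10 or more counts of it, and the prior count of log2 CPM was 2. A standard error is the absolute log2 fold change over the square root of F. The study states a fold change over 1.5 and an adjusted p-value under 0.05 but names no test. With 3 against 3 libraries an exact permutation test cannot reach 0.05, its smallest p-value being 0.10. Alternatives were DESeq2 1.42.0, limma 3.58.1 (voom, or on log2(TPM + 1) or log2(FPKM + 1)), upper-quartile normalization, 2 other filters, no fold threshold, a replicate block and each library left out. Tables were made with pandas 2.3.3 and plots with matplotlib 3.10.9 under Python 3.11.15.

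The members and lists were chosen with earlier results of these data known. Named were all members, of each other pathway list the genes with an unadjusted p-value under 0.05 (the 4 smallest if more, the most abundant if none), of each marker list the most abundant gene, and transcripts of members with at least 2 tested transcripts of at least 10% of the gene's counts. Genes outside this rule (Mlycd, Rxra, Rxrb, Angptl4, Acsm3, Cyp4f14, Tfam, Sirt3 and marker genes that were not the most abundant) were picked with their values known. So were the transcripts of Acox3, Acsl1, Cpt1a and Eci2 with small shares. The list genes Lep and Myh4 were not in the table. The symbol Plin2 had 2 gene numbers, and that of the RefSeq entry (GRCm38.p6) was used. List medians carry no test. Promoter windows are on GRCm38.p6. The labels give mm9 for the counts, although some deposited transcript names are of later RefSeq releases, so the annotation behind the counts is not certain, and no position was carried between them.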

Additional observations from a re-analysis of the deposited data

How the results depend on the processing

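Under DESeq2 instead of edgeR, 1 member, 884 genes, 1 transcript of a member and 889 transcripts were called, where edgeR called 0 of each. limma-voom, upper-quartile normalization, both other filters, limma on log2(TPM + 1) or log2(FPKM + 1), the replicate block and no fold threshold called 0 members and 0 genes. The cause was not tested. The correlations of same-numbered libraries were -0.151, 0.0613 and 0.208, and those of other pairs lay between -0.37 and 0.31. With 3 libraries in each group these values cannot tell whether a number stands for a shared batch. The main fit used no pairing.

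With 1 library left out, 0 to 2 members and 0 to 1097 genes were called, 3 to 20 members were lower and 0 to 4 higher without overlap (all genes: 14.4 to 24.3% and 14.1 to 25.8%), and 0 transcripts were called. The cause was not tested. The medians of the members ran from -0.55 to -0.033 (other alternatives: -0.46 to -0.33) and of the mitochondrial class from -0.76 to -0.20 (other alternatives: -0.59 to -0.43).

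Of 35 members, 20 kept the sign of the log2 fold change in all alternatives and 15 did not. For reasons not tested, limma on log2(TPM + 1) gave -0.010 for Slc25a20, -0.20 for Acaa1b, -0.090 for Pex11a, -0.054 for Cyp4a10 and -0.18 for Cyp4a14. For Acaa1b and Cyp4a14, limma on log2(FPKM + 1) gave -0.090 and -0.072, limma-voom -0.11 and -0.099, and the block -0.12 and -0.095. With 1 library left out, the log2 fold changes that changed sign ran from -0.39 to 0.15 for Cpt2, from -0.34 to 0.059 for Acadl, from -0.96 to 0.019 for Acad10, from -0.43 to 0.19 for Eci1, from -0.33 to 0.088 for Decr1, from -0.34 to 0.017 for Etfb, from -0.81 to 0.043 for Ehhadh, from -0.53 to 0.029 for Hsd17b4, from -0.48 to 0.14 for Decr2, from -0.27 to 0.52 for Acaa1b, from -0.071 to 0.48 for Pex11a, from -0.14 to 0.41 for Cyp4a10, from -0.44 to 0.45 for Cyp4a14, from -0.16 to 0.27 for Slc25a20 and from -0.40 to 0.022 for Cpt1a. The cause was not tested.

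Depth limited no member, since each had far more than 3 counts in every library.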
